A study of Mus musculus with 6 samples.

Results

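The mitochondrial import and carrier genes are the 75 protein-coding mouse genes whose symbol starts with Timm, Tomm, Slc25a, Samm50 or Pam16, out of 21887 protein-coding genes of the GRCm38 annotation outside the mitochondrial genome. They comprise 28 translocase genes (Timm, Tomm, Samm50 and Pam16) and 47 Slc25a carrier genes. Membership followed the symbol, and the set was chosen with earlier results of these data known. Their chromatin was examined by ATAC-seq, which maps open DNA by the insertion of sequencing adapters by the transposase Tn5, in pancreatic islets of 16-week-old mice. There were 6 libraries in 3 groups of 2. Knockout-Acsl4 islets carried the BetaRicKO genotype, a loss of Rictor in beta cells, and received an adenovirus with Acsl4, an acyl-CoA synthetase. Knockout-GFP islets had the same genotype and received an adenovirus with GFP. Control-GFP islets were labelled wildtype and received the GFP adenovirus. All islets were therefore kept and transduced ex vivo, for 48 h, and about 50 islets went into each library. The sources used here do not give the Cre driver, the sex of the mice or whether each library came from its own mouse. The loss of Rictor concerns beta cells, whereas whole islets also hold other endocrine and non-endocrine cells, and in such bulk samples fewer cells of a type and less open chromatin per cell cannot be told apart.

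Most mitochondrial proteins are made in the cytosol and imported. The TOM complex of the outer membrane lets nearly all of them in, with Tomm20 and Tomm70a as receptors and Tomm40 as the channel. The TIM23 complex and its motor pull proteins with a cleavable presequence into the matrix, while small TIM chaperones hand hydrophobic proteins, carriers among them, to the TIM22 complex of the inner membrane. The Slc25 carriers are such cargo: they exchange ADP, ATP, phosphate, carboxylates, amino acids, cofactors and metals across the inner membrane. In beta cells this exchange couples glucose oxidation to ATP supply and insulin release.

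A gene was counted as marked in a library when a peak of its list overlapped the stretch of 1000 bp on either side of either gene end. Each peak carries a score, read as the −log10 of its q-value, and a score percentile, its rank within its own list (100 is the highest). The lists differed widely. They held 525 and 5874 peaks in the knockout-Acsl4 libraries 1 and 2, 2206 and 4257 in the knockout-GFP libraries, and 4442 and 1628 in the control-GFP libraries. The share of peaks at gene ends was 35.8% and 5.29% in knockout-Acsl4, 67.2% and 75.5% in knockout-GFP, and 70.9% and 21.7% in control-GFP. Thus 3 libraries, knockout-Acsl4 1 and 2 and control-GFP 2, stood apart, with 224, 345 and 438 genes marked. The sources used here give no read depth, so an unmarked gene is one without a called peak and not one shown to be closed. Peaks do not measure RNA, so they give no check of the lost Rictor or the added Acsl4. Of the islet markers, Mafa and Nkx6-1 were marked in 2 libraries each, and the other 8 of 10 beta cell markers, the insulin genes Ins1 and Ins2 among them, in none. Markers of other endocrine, acinar, endothelial, stromal and immune cells were unmarked, and 1 of 3 ductal markers was marked in 1 library.

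The promoter windows of 6 genes are printed because the results turn on them: the import channel Tomm40, marked in the most libraries; the receptor Tomm20, the only member marked in a knockout-Acsl4 library; the receptor Tomm70a, marked in both control libraries; the phosphate carrier Slc25a3 and the coenzyme A carrier Slc25a42, each marked in 3 libraries; and Slc25a4, an ADP/ATP carrier marked in none. Each runs 5′ to 3′ along the gene's strand, from 250 bases before to 50 after a RefSeq start (GRCm38.p6). The windows are chr7:19715380-19715679 (Tomm40, minus strand), chr8:126945872-126946171 (Tomm20, minus), chr16:57121464-57121763 (Tomm70a, plus), chr10:91123918-91124217 (Slc25a3, minus), chr8:70212232-70212531 (Slc25a42, minus) and chr8:46211013-46211312 (Slc25a4, minus). Capitals mark matches, on either strand, to the 9 short motifs searched, which are listed with the promoter results.
Tomm40: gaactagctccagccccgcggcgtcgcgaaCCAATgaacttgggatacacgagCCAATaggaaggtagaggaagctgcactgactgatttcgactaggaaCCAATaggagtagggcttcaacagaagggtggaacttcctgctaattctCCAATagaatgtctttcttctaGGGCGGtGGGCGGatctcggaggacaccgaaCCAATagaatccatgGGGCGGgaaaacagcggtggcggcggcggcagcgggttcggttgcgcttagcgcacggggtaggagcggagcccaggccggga
Tomm20: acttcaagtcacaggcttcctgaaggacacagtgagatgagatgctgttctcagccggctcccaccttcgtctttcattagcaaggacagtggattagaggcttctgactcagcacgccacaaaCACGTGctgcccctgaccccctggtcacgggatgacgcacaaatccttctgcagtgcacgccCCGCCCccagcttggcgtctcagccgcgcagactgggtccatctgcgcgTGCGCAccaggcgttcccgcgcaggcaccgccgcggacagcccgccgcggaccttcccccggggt
Tomm70a: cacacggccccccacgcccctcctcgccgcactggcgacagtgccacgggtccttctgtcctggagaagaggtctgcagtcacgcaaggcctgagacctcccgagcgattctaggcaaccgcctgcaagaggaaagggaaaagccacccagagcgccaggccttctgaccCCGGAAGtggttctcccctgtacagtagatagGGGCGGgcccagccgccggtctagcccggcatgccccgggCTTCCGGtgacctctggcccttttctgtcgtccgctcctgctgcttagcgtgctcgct
Slc25a3: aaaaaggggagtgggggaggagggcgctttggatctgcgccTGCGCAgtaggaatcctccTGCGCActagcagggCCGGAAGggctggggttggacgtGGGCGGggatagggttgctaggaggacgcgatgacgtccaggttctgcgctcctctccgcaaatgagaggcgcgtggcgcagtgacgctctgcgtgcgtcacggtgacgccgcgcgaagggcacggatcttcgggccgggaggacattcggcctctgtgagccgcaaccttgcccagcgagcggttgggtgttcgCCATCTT
Slc25a42: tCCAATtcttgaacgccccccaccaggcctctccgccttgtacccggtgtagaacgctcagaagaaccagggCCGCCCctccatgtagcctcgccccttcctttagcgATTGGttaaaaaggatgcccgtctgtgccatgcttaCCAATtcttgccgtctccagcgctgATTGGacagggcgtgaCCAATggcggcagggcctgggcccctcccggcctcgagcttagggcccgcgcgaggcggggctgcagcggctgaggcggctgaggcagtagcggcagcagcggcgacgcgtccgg
Slc25a4: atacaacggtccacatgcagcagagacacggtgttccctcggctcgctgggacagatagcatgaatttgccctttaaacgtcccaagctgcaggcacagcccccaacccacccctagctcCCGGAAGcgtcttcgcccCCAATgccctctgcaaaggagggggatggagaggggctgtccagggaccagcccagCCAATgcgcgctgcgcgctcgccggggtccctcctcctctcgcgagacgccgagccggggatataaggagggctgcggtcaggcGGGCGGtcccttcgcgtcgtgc

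Import and carrier genes were marked more often than protein-coding genes in general in the 3 libraries with most gene-end peaks. In the knockout-GFP libraries 14 and 21 of the 75 genes were marked, or 18.7% and 28.0%, where 8.2% and 17.3% of all protein-coding genes were. In control-GFP 1 the count was 24, or 32.0% against 16.7% of all genes, and in control-GFP 2 it was 2, or 2.67% against 2%. In the knockout-Acsl4 libraries 1 and 0 members were marked, or 1.33% and 0%, against 1.02% and 1.58% of all genes. The knockout-GFP counts of 14 and 21 thus lay between the control counts of 24 and 2. The members' share was 2.28 and 1.62 times that of all genes in knockout-GFP and 1.92 and 1.33 times in control-GFP. These ratios describe the libraries and carry no test. Over all libraries 30 of the 75 genes (40%) were marked at least once, against 24.5% of all genes, and 11 (14.7%) were marked in 3 or more libraries, against 6.52%. A single member, Tomm40, reached 4 libraries (1.33%, against 1.62% of all genes with 4 or more), and none was marked in 5 or 6.

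**Figure D1:**
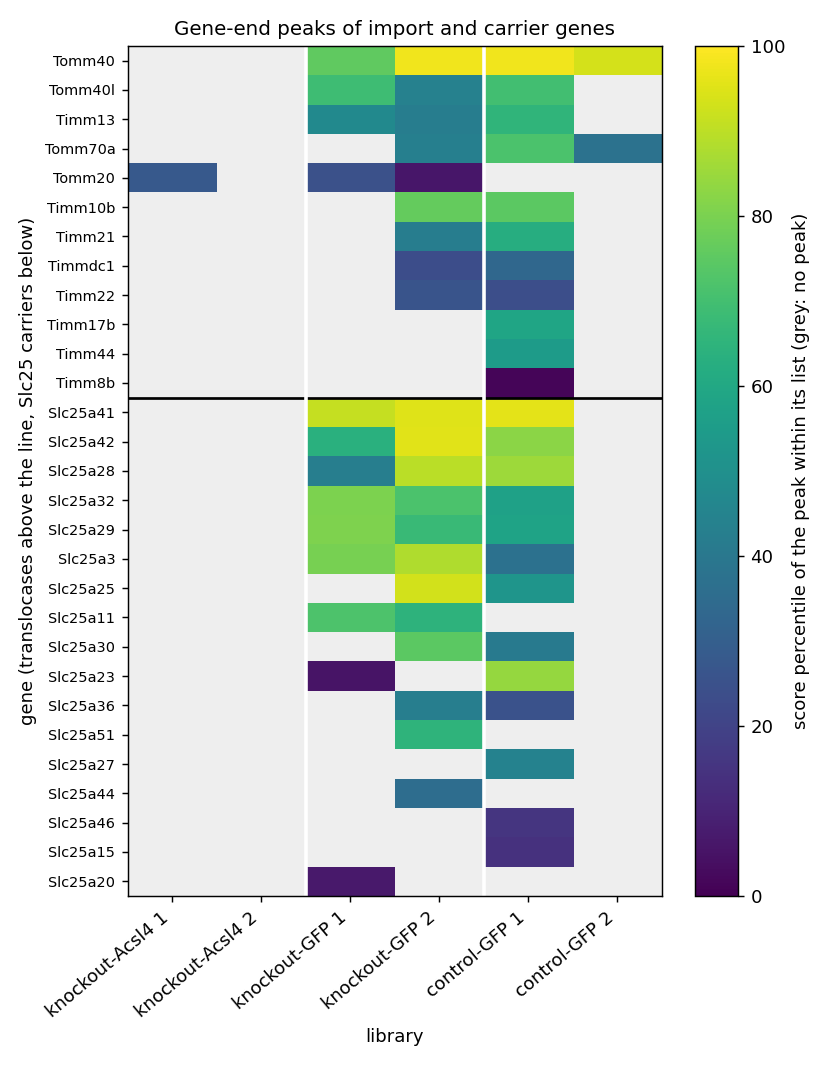
Score percentile of the gene-end peak of 29 of the 30 marked members (rows, translocases above the line and Slc25 carriers below it) in each of the 6 libraries (columns); grey cells have no peak. Nearly all coloured cells lie in the knockout-GFP libraries and control-GFP 1, Tomm40 is the only gene with 4 coloured cells, and Tomm20 holds the only cell in knockout-Acsl4.

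The share of translocases and the share of carriers did not differ in a constant direction. Translocases were marked at 14.3% (4 of 28, exact 95% interval 4.03 to 32.7) in knockout-GFP 1, below the carriers at 21.3% (10 of 47, 10.7 to 35.7). In knockout-GFP 2 the order was the other way, with 32.1% of translocases (9 of 28, 15.9 to 52.4) and 25.5% of carriers (12 of 47, 13.9 to 40.3). Control-GFP 1 marked 39.3% of translocases (11 of 28, 21.5 to 59.4) and 27.7% of carriers (13 of 47, 15.6 to 42.6). Control-GFP 2 marked 2 translocases and no carrier, knockout-Acsl4 1 a single translocase and no carrier, and knockout-Acsl4 2 neither. The difference was thus positive in 4 libraries, negative in 1 and 0 in 1, between −6.99 and 11.6 percentage points, and the intervals of the 2 families overlapped in each library. With the better-scoring 50% of each list the difference in knockout-GFP 2 was −14.1 points, against 6.61 points with the full list, so its sign depended on how many peaks were kept.

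**Figure D2:**
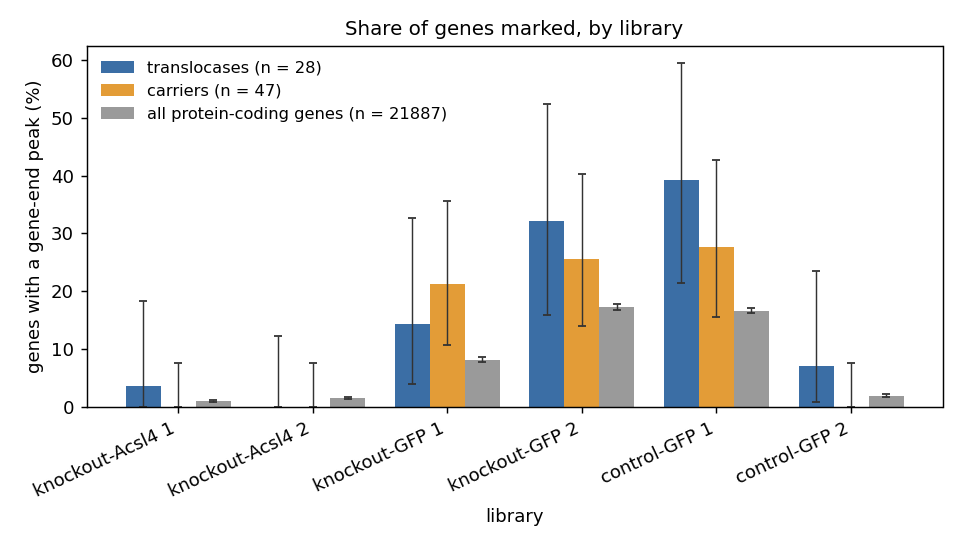
Percent of translocases, Slc25 carriers and all protein-coding genes with a gene-end peak in each library; error bars are exact 95% intervals and cover counting error only. Both families stand above all genes in knockout-GFP 1, knockout-GFP 2 and control-GFP 1, with overlapping intervals between translocases and carriers. The share of all genes still lies inside the interval of translocases in knockout-GFP 1 and 2, and inside that of carriers in knockout-GFP 2 and control-GFP 1.

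Counts by role follow, each over few genes and without a test. Beside them stand the shares over all protein-coding genes, 24.5% marked at least once and 6.52% in 3 or more libraries. At the outer membrane, 4 of the 11 genes were marked and all 4 were marked in 3 or more libraries. Tomm40 (chromosome 7, 19701313 to 19715442), the channel of the TOM complex, had peaks with score percentiles of 75.7 and 97.9 in knockout-GFP 1 and 2 and of 97.7 and 93.6 in control-GFP 1 and 2. It had none in either knockout-Acsl4 library. The peak was 452 and 697 bp wide in knockout-GFP and 504 and 192 bp wide in control-GFP. Tomm40l (chromosome 1, 171217802 to 171222514), a close relative of the channel, stood at percentiles of 69.0 and 44.1 in knockout-GFP and 69.7 in control-GFP 1. Tomm70a (chromosome 16, 57121714 to 57154530), a receptor for carriers and other hydrophobic cargo, stood at 43.3 in knockout-GFP 2 and at 71.7 and 37.5 in control-GFP.

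Tomm20 (chromosome 8, 126930664 to 126945921), the presequence receptor, had a different distribution. It was marked in knockout-Acsl4 1 with a score of 2.59 (percentile 27.9) and in knockout-GFP 1 and 2 with scores of 2.99 and 2.33 (24.9 and 6.15), and in no control library. The 3 peaks were 106 to 148 bp wide. They lay low in their lists, whose lowest scores were 1.32 in knockout-Acsl4 1 and 1.31 in both knockout-GFP libraries. Of all protein-coding genes, 0.0594% (13 genes) were likewise marked in both knockout-GFP libraries, in a knockout-Acsl4 library and in no control, a pattern counted after the Tomm20 values were seen. The other outer membrane genes, which are the receptor Tomm22, the small subunits Tomm5, Tomm6 and Tomm7, the cochaperone Tomm34, Tomm20l and the beta-barrel insertase Samm50, were unmarked in all 6 libraries.

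Of the 7 genes of the TIM23 channel and motor, 3 were marked, none of them in more than 2 libraries. Timm21, a subunit that links TIM23 to TOM and the respiratory chain, stood at percentiles of 42.5 in knockout-GFP 2 and 62.4 in control-GFP 1. Timm17b, a channel subunit, stood at 58.8 in control-GFP 1 only, while its paralogue Timm17a was unmarked. Timm44, which anchors the motor, was marked in control-GFP 1 by a peak at the far end of the gene, 342 bp away from it and over the start of its neighbour Ctxn1. Timm23, Timm50 and Pam16 were unmarked.

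Of the 9 small TIM chaperones and TIM22 subunits, 4 were marked. Timm13, which forms a chaperone with Timm8 proteins, stood at percentiles of 47.6 and 42.2 in knockout-GFP and 65.5 in control-GFP 1. Timm10b, a chaperone bound to TIM22, stood at 76.4 in knockout-GFP 2 and 74.7 in control-GFP 1. Timm22, the carrier insertase itself, was lower, with 25.9 and 24 in the same 2 libraries. Timm8b had a single peak at percentile 1.51 of control-GFP 1. Timm9, Timm10, Timm29, Timm8a1 and Timm8a2 were unmarked. Timmdc1, which shares sequence with these proteins but assembles respiratory complex I, stood at 23.7 in knockout-GFP 2 and 33.4 in control-GFP 1.

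Among the adenine nucleotide and phosphate carriers, 4 of 8 were marked. Slc25a3 (chromosome 10, 91116574 to 91124046), which brings in the phosphate for ATP synthesis, had percentiles of 79.4 and 87.9 in knockout-GFP and 37.3 in control-GFP 1. The ADP/ATP carriers Slc25a4, Slc25a5 and Slc25a31 were unmarked in all libraries. Of the ATP-Mg/phosphate carriers, Slc25a25 stood at 93.0 in knockout-GFP 2 and 52.0 in control-GFP 1, Slc25a23 at 5.46 in knockout-GFP 1 and 84.2 in control-GFP 1, and Slc25a24 was unmarked. Slc25a41, a relative of these carriers, had percentiles of 91.4 and 95 in knockout-GFP and 96 in control-GFP 1. Its peak lay 538 to 600 bp from the gene and 0 to 64 bp from the start of Khsrp, an RNA-binding protein gene, so it cannot be assigned to Slc25a41 from position.

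Carboxylate, amino acid and carnitine carriers were marked in 5 of 14 cases. Slc25a29 (chromosome 12, 108825878 to 108835876), a carrier of basic amino acids, stood at percentiles of 80.6 and 67.7 in knockout-GFP and 57.9 in control-GFP 1. Slc25a11, the oxoglutarate/malate carrier of the malate-aspartate shuttle, stood at 71.9 and 64.5 in knockout-GFP and was unmarked in both controls. Its peaks lay 246 and 282 bp inside the annotated gene end and over the start of Rnf167, a ubiquitin ligase gene on the opposite strand. They also covered 220 and 253 bases of the RefSeq promoter window of Slc25a11 itself, which lies inside the annotated gene. The branched-chain amino acid carrier Slc25a44 had 1 peak, at 35.6 in knockout-GFP 2. The carnitine carrier Slc25a20 had 1, at 6.96 in knockout-GFP 1, and the ornithine carrier Slc25a15 had 1, at 14.3 in control-GFP 1. The aspartate/glutamate carriers Slc25a12 and Slc25a13, the citrate carrier Slc25a1, the dicarboxylate carrier Slc25a10 and the glutamate carriers Slc25a18 and Slc25a22 were unmarked, as were Slc25a2, Slc25a21 and Slc25a38.

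Cofactor, nucleotide and metal carriers were marked in 6 of 13 cases, 3 of them in 3 libraries. Slc25a42 (chromosome 8, 70184340 to 70212281), a carrier of coenzyme A, stood at percentiles of 63.6 and 95.4 in knockout-GFP and 82.5 in control-GFP 1. Slc25a28 (chromosome 19, 43663801 to 43675006), a mitochondrial iron importer, stood at 42.9 and 89.7 in knockout-GFP and 85.4 in control-GFP 1, while its paralogue Slc25a37 was unmarked. Slc25a32, a folate and flavin carrier, stood at 80.4 and 71.7 in knockout-GFP and 57.4 in control-GFP 1. The pyrimidine nucleotide carrier Slc25a36 stood at 42.8 in knockout-GFP 2 and 25 in control-GFP 1. The NAD carrier Slc25a51 had 1 peak, at 65.1 in knockout-GFP 2. Unmarked were the glutathione carriers Slc25a39 and Slc25a40, Slc25a16, Slc25a17, Slc25a26 and Slc25a33. Of the 12 uncoupling-like and other carriers, Slc25a30 stood at 74.7 in knockout-GFP 2 and 40.7 in control-GFP 1, and Slc25a27 (44.3) and the outer membrane protein Slc25a46 (15.4) were marked in control-GFP 1 only. The other 9 (Slc25a14, Slc25a34, Slc25a35, Slc25a43, Slc25a45, Slc25a47, Slc25a48, Slc25a53 and Slc25a54) were unmarked.

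Proteins that work with these genes were described from a list of 46, chosen for function, such as the motor chaperone Hspa9, processing peptidases, cristae proteins and other channels. Of these 26 (56.5%, against 24.5% of all genes) were marked at least once, 0 and 0 in knockout-Acsl4, 13 and 22 in knockout-GFP, and 16 and 1 in control-GFP. The 9 marked in 3 libraries (19.6%, against 6.52% of all genes in 3 or more), each time both knockout-GFP libraries and control-GFP 1, were Hspa9, its exchange factor Grpel1, the matrix chaperonins Hspd1 and Hspe1 (neighbours whose ends overlap), the protease subunit Clpp, the cristae proteins Immt and Apoo, the pyruvate carrier subunit Mpc2 and the sideroflexin Sfxn2. The import motor's chaperone Hspa9 and exchange factor Grpel1 were thus marked in 3 libraries each, while its Pam16 subunit was marked in none and Timm44 only at its far end. Other motor partners in the list were marked less often: Grpel2 in 1 library, and Dnajc15 and Dnajc19 in none.

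Set against control-GFP, the knockout-GFP libraries bear on the loss of Rictor under the same virus. Slc25a11 and Tomm20 had a peak in each knockout-GFP library and in no control, which is 2.67% of the members, against 1.04% of all protein-coding genes. They are 2 of the 11 members marked in both knockout-GFP libraries, as 227 of the 1447 such genes had this pattern among all genes. The Slc25a11 peaks lay over the start of Rnf167 and also over the RefSeq promoter window of Slc25a11. The Tomm20 peaks stood at percentiles of only 24.9 and 6.15. Control-GFP 2 marked only 438 genes in all, and the part of that in the result was not tested. No member was marked in both controls and in neither knockout-GFP library, against 0.0914% of all genes. Only 2 members and 348 genes were marked in both controls. No gene was tested, since with 2 libraries per group the smallest two-sided p of an exact permutation test is 0.333. With a single library left in a group, the knockout-only count stayed at 2 without control-GFP 2. The control-only count stayed at 0 without control-GFP 1 or knockout-GFP 1. Other counts moved: the knockout-only count was 10 without control-GFP 1 and 4 without knockout-GFP 1 or knockout-GFP 2. The control-only count was 6 without control-GFP 2 and 1 without knockout-GFP 2. The same counts over all protein-coding genes were not computed with a library left out, so these shifts cannot be read as particular to the members. The remaining 9 members marked in both knockout-GFP libraries were marked in control-GFP 1 as well.

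Knockout-Acsl4 against knockout-GFP bears on added Acsl4 in islets without beta cell Rictor. No member was marked in both knockout-Acsl4 libraries and in neither knockout-GFP library, where 0.00914% of all genes were. In the other direction 10 members were: Tomm40, Tomm40l, Timm13, Slc25a3, Slc25a11, Slc25a28, Slc25a29, Slc25a32, Slc25a41 and Slc25a42. They are 13.3% of the members, against 5.79% of all genes. They are also 10 of the 11 members marked in both knockout-GFP libraries, as 1267 of the 1447 such genes had this pattern among all genes. The knockout-Acsl4 lists marked only 224 and 345 genes in all, against 1795 and 3788 in knockout-GFP, and the part of that difference in the result was not tested. The count was 20 without knockout-GFP 1, with no count over all genes computed for that setting. The knockout-GFP libraries are the same as in the comparison with control-GFP, so the counts of both comparisons share them.

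Knockout-Acsl4 and control-GFP differ in genotype and virus at once, and both groups also enter the comparisons with knockout-GFP. Since no member was marked in both knockout-Acsl4 libraries, none could be marked there and in neither control. Of the 12 genes marked in both knockout-Acsl4 libraries, 1 was marked in neither control (0.00457% of all genes). Tomm40 and Tomm70a were marked in both controls and in neither knockout-Acsl4 library, 2.67% of the members, against 1.32% of all genes. They are also the only 2 members marked in both controls, as 289 of the 348 such genes had this pattern among all genes. The knockout-Acsl4 lists marked only 224 and 345 genes in all, and the part of that in this result was not tested. The control-only count was 24 without control-GFP 2, and the knockout-Acsl4-only count was 1 without knockout-Acsl4 2. For these settings, too, counts over all genes were not computed.

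When each list was cut to its 525 best-scoring peaks, the length of the shortest, 9 members were left with a mark in any library, in place of 30. Members marked numbered 1 and 0 in knockout-Acsl4, 4 and 6 in knockout-GFP, and 2 and 1 in control-GFP. The shares over all protein-coding genes at that length were 1.02% and 0.0868% in knockout-Acsl4, 1.9% and 1.92% in knockout-GFP, and 1.91% and 0.877% in control-GFP. Knockout-GFP 1 kept Slc25a3, Slc25a29, Slc25a32 and Slc25a41, and knockout-GFP 2 kept Slc25a3, Slc25a25, Slc25a28, Slc25a41, Slc25a42 and Tomm40. Control-GFP 1 kept Tomm40 and Slc25a41, control-GFP 2 kept Tomm40, and knockout-Acsl4 1 kept Tomm20. At this length the knockout-GFP counts lay above the control-GFP counts, and each count rests on 1 to 6 genes. Among members Slc25a3 alone was then marked in each knockout-GFP library and in no control, 1.33% of the members against 0.251% of all genes. With the full lists Slc25a3 also had a peak in control-GFP 1 (percentile 37.3), which the cut removed. Slc25a11 and Tomm20, which had this pattern with the full lists, no longer had it, so no member had it at both lengths. The reverse pattern was found in 0 members, against 0.0868% of all genes. Slc25a3 and Slc25a41 were marked in each knockout-GFP library and in no knockout-Acsl4 library, 2.67% against 0.475% of all genes. Tomm40 alone was marked in each control and in no knockout-Acsl4 library, 1.33% against 0.288% of all genes.

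The peaks of members sat at gene starts. Of the 62 member peaks, 46 belonged to genes with a known strand, and 45 of these were at the start, the exception being Timm44. Over all genes 95.4% to 97.0% of gene-end peaks were at starts in 5 libraries and 72.6% in knockout-Acsl4 2. The centres of the 45 peaks lay between −587.5 and 408 bp of the annotated start (negative values upstream), with a median of −87 bp, and 40 overlapped a RefSeq promoter window of the gene. The 5 that did not were the peaks of Slc25a23 and Slc25a25, farthest upstream at −587.5 to −513.5 bp, and of Slc25a20. Farthest inside its gene lay Slc25a11. Each of the 20 members marked in 2 or more libraries had its peaks in a single merged region, so the libraries marked the same place. No member peak lay in one of the 50 regions called in all 6 libraries.

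**Figure D3:**
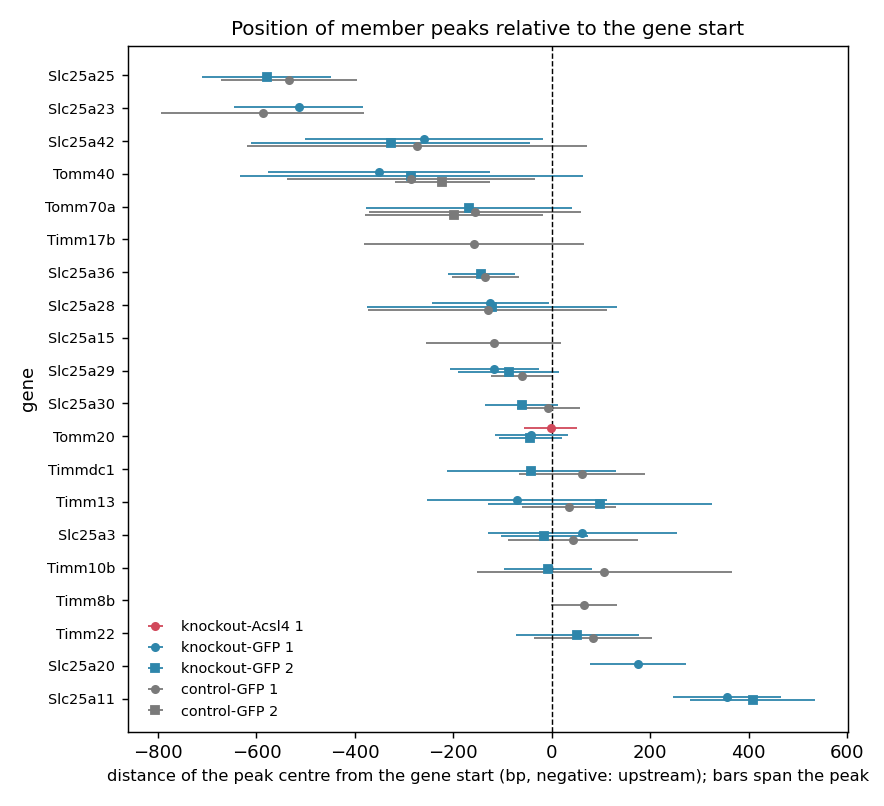
Distance of the peak centre from the annotated gene start (x axis, bp, negative values upstream) for the 45 member peaks at gene starts, by gene (y axis); horizontal bars span the peak, colours give the group and symbols the library number. Within a gene the peaks of different libraries overlap, and most lie within 250 bp of the start (33 of 45).

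Member peaks had widths of 106 to 730 bp, with a median of 259 bp. In the 3 libraries with most members, their median width was 228.5, 250 and 283 bp in knockout-GFP 1, knockout-GFP 2 and control-GFP 1, against 210, 222 and 253 bp for all gene-end peaks. Their median score percentile was 66.3, 65.1 and 57.7 there, against 53.2, 51.9 and 54.0 for all gene-end peaks. The largest distance between a counted peak and its gene was 600 bp (Slc25a41), and the nearest uncounted peaks lay 1490 and 1622 bp from Slc25a38 in knockout-GFP 2 and control-GFP 1 and 1588 bp from Slc25a18 in knockout-Acsl4 2. Peaks inside a member but away from its ends occurred in 6 genes: Slc25a12, Slc25a25, Slc25a26 and Slc25a30 in knockout-Acsl4 2, Timm10b in knockout-GFP 1 and control-GFP 1, and Slc25a21 in control-GFP 1.

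A peak of 11 members also lay within reach of another protein-coding gene's end. The start of Timm10b faced that of Arfip2, Timm17b that of Pqbp1, and Timm8b that of Sdhd, a subunit of succinate dehydrogenase, all on opposite strands. Slc25a32 lay next to Dcaf13 and Slc25a27 next to Cyp39a1, while the peaks of Tomm40 lay 569 to 884 bp and those of Timm13 142 to 333 bp from the far ends of Nectin2 and Lmnb2. One peak of Tomm40l lay 961 bp from the start of Apoa2. For Slc25a11, Slc25a41 and Timm44 the peak was nearer to an annotated end of the neighbour (Rnf167, Khsrp and Ctxn1) than of the member. An alternative that gives a peak only to the nearest gene end removed these 3 genes. The Slc25a11 peaks nevertheless overlapped the RefSeq promoter window of Slc25a11.

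The promoter windows of 61 members were in the RefSeq table, with 1 window per gene taken nearest to the annotated start. The observed over expected CpG ratio, which is high where CpG sites were not lost through methylation, had a median of 0.73 in members and 0.58 in 17492 protein-coding genes. It was at least 0.6 in 19 of 25 translocases (76.0%) and in 19 of 36 carriers (52.8%), against 48.4% of all genes. All 8 members with a window that were marked in 3 or more libraries passed 0.6, with a median ratio of 0.82, as did 89.9% of all genes so marked. Members marked in 1 or 2 libraries had a median of 0.75 and unmarked members of 0.62, against 0.81 and 0.40 for all genes. High CpG content was also found in unmarked members: the unmarked Slc25a4 and Slc25a5 had ratios of 0.78 and 0.67, while the lowest ratio, 0.038, belonged to the unmarked Slc25a34.

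**Figure D4:**
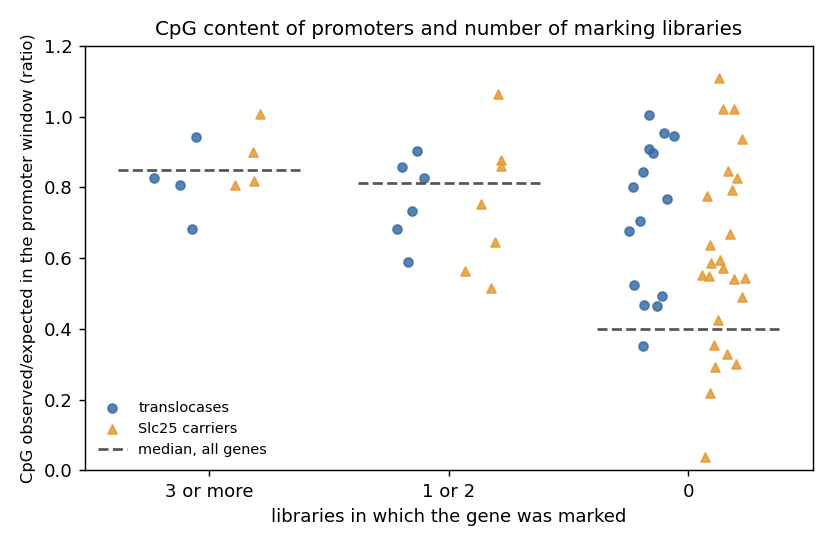
Observed over expected CpG ratio of the promoter window (y axis) for translocases (circles) and Slc25 carriers (triangles) by the number of libraries in which the gene was marked (x axis); dashed lines are medians over all protein-coding genes of the same class (0.85, 0.81 and 0.40). Members marked in 3 or more libraries lie between 0.68 and 1.01, whereas unmarked members spread over the whole range.

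The 9 motifs were searched on both strands of these windows, and none of them contains another, on either strand. A match is a string of letters and no evidence of binding. The SP1 box GGGCGG was found in 43 of 61 members (70.5%, against 46.3% of all genes), in 13 of 25 translocases and 30 of 36 carriers. The ETS motif CCGGAAG, known from promoters of nuclear genes for mitochondrial proteins, was found in 17 members (27.9%, against 11.9%), 10 of them translocases and 7 carriers. The E-box CACGTG was found in 11 members (18%, against 7.91%) and TGCGCA, a part of the site of NRF1, a regulator of such nuclear genes, in 9 (14.8%, against 10.1%). The CCAAT box was found in 25 (41.0%, against 39.2%), AAGATGG of YY1 in 4 (6.56%, against 6.35%), AAGGTCA of ESRRA in 4 (6.56%, against 4.06%), TGACGTCA of CREB in 1 (1.64%, against 2.33%) and TATAAA in 3 (4.92%, against 13.3%). Among all genes these shares also moved with marking, in either direction. GGGCGG stood in 78.4% of genes marked in 3 or more libraries and in 37.6% of unmarked ones. TATAAA stood in 4.57% and 16.0% of the same 2 classes, and AAGGTCA in 2.08% and 4.65%. The E-box of members stood in 9 of 40 unmarked members, 1 of 13 marked in 1 or 2 libraries and 1 of 8 marked in 3 or more.

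In the sequences printed, Tomm40 and Slc25a42 each held 5 CCAAT boxes, with 3 SP1 boxes in Tomm40 and 1 in Slc25a42. Slc25a3 held 2 NRF1 matches and 1 each of the ETS motif, the SP1 box and the YY1 motif, the last of these at the end of its window. Tomm20 held 1 NRF1 match, 1 E-box and 1 SP1 box, and Tomm70a held 2 ETS motifs and 1 SP1 box. The unmarked Slc25a4 held 2 CCAAT boxes, 1 ETS motif and 1 SP1 box, so such matches also occurred in a window without a called peak. The peak of knockout-GFP 2 covered all 300 bases of the Tomm40 window, and that of knockout-Acsl4 1 covered 105 bases of the Tomm20 window.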

How the data were processed

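The authors deposited 1 peak list per library, with the position and a score for each peak and no header. The deposited scores were read as −log10 q-values, since the lowest in each list (1.30 to 1.32) lies just above 1.30, the −log10 of 0.05; no header states this. Per the submitters' processing notes the tools include MACS2 2.1.1, BWA 0.7.10, SAMtools, Trimmomatic and FastQC, without roles or settings, and the builds named are hg38 and GRCh38, although the samples are mouse. The lists were read as GRCm38. The share of a list's peaks at the RefSeq gene ends of that build (GRCm38.p6) ran from 5.29% in knockout-Acsl4 2 to 75.5% in knockout-GFP 2. Coordinates are 1-based. No read depth per library was in the sources used here. Strand came from the RefSeq promoter table, which held 61 of the 75 members.

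A gene was marked when a peak overlapped 1000 bp around either end by 1 bp. Counts were set beside the same counts over all protein-coding genes. A gene counts for a comparison when each library of one group has a peak there and no library of the other does. Exact Clopper-Pearson 95% intervals cover counting error only. Members and lists were chosen with earlier results of these data known, so no p is given over them. Genes named are those marked in 3 or more libraries, those with a pattern between groups and those marked in knockout-Acsl4. Also named are up to 4 more per role, unmarked members by name, and partners marked in 3 or more libraries. Genes named for CpG content or for other peaks, and the partners Grpel2, Dnajc15 and Dnajc19, were picked after their values were seen. The values of 1 marked member are not reported here, though counts include it. The marking step was tested on simulated data. Python 3.11.15, pandas 2.3.3 and SciPy 1.17.1 were used.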

Additional observations from a re-analysis of the deposited data

How the results depend on the processing

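Counts were recomputed under other settings and without each library in turn. Windows of 300 bp, a peak with at least 50% of its length inside the window, the start end only (61 members), leaving out the 50 regions called in all libraries, and leaving out Timmdc1 and Tomm34 moved no count by more than 1.5 times. Differences between translocase and carrier shares kept their sign there but moved by more: with 300 bp that of knockout-GFP 1 was −2.74 points in place of −6.99 and that of knockout-GFP 2 was 10.9 in place of 6.61, and with the start end only that of control-GFP 1 was 7 in place of 11.6. With 3000 bp knockout-Acsl4 2 had 1 member in place of 0 and a difference of −2.13 points in place of 0, and 32 members were marked in any library. At equal list lengths (525 peaks) 9 members were marked in any library in place of 30. The knockout-GFP-only count against control-GFP was 1 in place of 2 (0.251% of all genes at that length), and the member counted was a different one, Slc25a3. Against knockout-Acsl4 the knockout-GFP-only count was 2 in place of 10 (0.475%). The control-GFP-only count against knockout-Acsl4 was 1 in place of 2 (0.288%). With the better-scoring 50% of each list, translocases had the higher share in 2 libraries in place of 4, and the control-GFP-only count against knockout-Acsl4 was 1. The translocase minus carrier difference in knockout-GFP 2, 6.61 points, was −14.1 with the better 50% and −7.07 at equal lengths. Giving each peak to the nearest gene end, an alternative chosen after seeing the data, left 1 knockout-GFP-only member against control-GFP. Some members were lost because fewer peaks were kept; other causes were not tested.

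Without single libraries, the knockout-GFP-only count against control-GFP ran from 2 to 10 and the control-GFP-only count from 0 to 6. Against knockout-Acsl4 the knockout-GFP-only count ran from 10 to 20 and the control-GFP-only count from 2 to 24. The knockout-Acsl4-only count against control-GFP ran from 0 to 1. Members marked in any library ran from 24 to 30, and libraries with the higher translocase share from 3 to 4. Counts over all genes were not computed with a library left out. No paired analysis was possible because nothing in the sources used here says what libraries of the same number share. The comparisons are counts with no test. Without read depth, the absence of a peak cannot be read as closed chromatin.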
